A study of Oreochromis niloticus with 14 samples.

Results

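The data described here are the liver transcriptomes of adult male tilapia (Oreochromis niloticus) injected with benzo(a)pyrene (BaP), set against those of fish that received the carrier alone. The libraries were chosen by the tissue and treatment in their labels and make up 8 of the 14 libraries of the series, 4 from BaP livers and 4 from control livers. The other 6 are from testis and are not used. All 12902 genes of the liver table were tested. The fish were 1 year old. Each BaP fish received 3 mg/kg of BaP in each of 5 intraperitoneal injections, 1 every 6 days, and each control fish received DMSO and corn oil on the same schedule. Livers were taken on day 26, 2 days after the last injection. Each group was kept in 2 aquaria of 12 fish, and no aquarium held both groups, so an effect of the aquarium and an effect of BaP cannot be told apart.

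BaP is a polycyclic aromatic hydrocarbon formed by incomplete combustion. In vertebrates it binds the aryl hydrocarbon receptor, a transcription factor whose best known targets are the cytochrome P450 genes cyp1a and cyp1b1, and the enzymes they encode oxidise BaP to products that can bind DNA. The liver is the main site of this oxidation, and it is also where most plasma proteins, lipoproteins, fatty acids and glycogen are made. The liver of tilapia holds islands of exocrine pancreas along its vessels, and a piece of liver also carries blood, which in fish contains nucleated red cells with RNA of their own.

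Gene reads numbered 12485109 to 35239564 in BaP livers and 20130829 to 42836246 in control livers. Levels are given as the deposited normalized CPM, reads scaled to a common effective library size. A count of 3 reads, used as the detection floor, equals 0.0646 to 0.27 normalized CPM depending on the library, a limit that reflects counting error alone. Differences are log2 fold changes of the value plus 1, BaP over control, so those of genes with few reads are smaller than the ratio of their means. A gene is called here by the rule the study used, which asks for a change of more than 1.5-fold at p under 0.05 before adjustment, and the words rose and fell are kept for called genes. The p-values come from limma, where the study used the edgeR exact test, so a gene that the study picked may not be called here. Adjusted p-values are Benjamini-Hochberg values over all 12902 genes. Names were at hand for 1437 genes that the study had itself picked from its liver or testis comparison. A count of called genes, or a median fold change, on a list of named genes is therefore a description of those genes. Neither is independent evidence of a direction. Over all genes 5.93% rose and 6.07% fell, and the BaP livers lay wholly above the control livers in 4.05% and wholly below in 3.67%, which are the shares to set beside the counts on each list. When the study's exact test was recomputed, its rule was met in liver by most members of most lists. At most 4 members did not meet it, except in the lipid breakdown, DNA repair, plasma protein, xenobiotic, exocrine pancreas, lymphoid and hepatocyte lists. Missing the recomputed rule does not show that the study had not picked a gene. Members that missed it have a small or uncertain change by that rule itself, so their direction and median are no check on those of a list.

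Of the 8 livers, 1 control liver stood apart from its group. The library labelled control replicate 3 resembled the BaP livers more than the other control livers. It is kept as a control liver, as labelled, and whether that label is right was not tested, which bears on every control mean given here. Its correlation over all genes was between 0.927 and 0.946 with the 4 BaP livers and between 0.901 and 0.927 with the other 3 control livers. On the first principal component, which took 32.4% of the variance between livers, the BaP livers stood at 17.6, 18.8, 44.3 and 27.9 and the control livers at -24.6, -57.3, 23.5 and -50.1. The groups overlapped only through control replicate 3. The mean positions were 27.1 in BaP livers and -27.1 in control livers, and an exact two-sided permutation test over the 8 fish gave p = 0.0857, where the smallest p that 4 fish against 4 allow is 0.0286. The second component, with 16.8% of the variance, did not separate the groups (exact two-sided permutation p = 0.543).

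The same liver stood apart in its blood cell genes. Of 17 erythroid marker genes, 14 fell with BaP and 3 were not called, and all 17 met the recomputed rule. Their summed level was 234, 933, 446 and 235 normalized CPM in BaP livers, against 1936, 3709, 286 and 1660.4 in control livers. The value of control replicate 3 lies within the range of the BaP livers, and the other 3 control livers lie above every BaP liver. Among these markers were a beta-globin gene (ENSONIG00000001489), with 47.4, 441, 197 and 94.9 in BaP livers, against 812, 1805, 95.1 and 777 in control livers, the erythropoietin receptor epor, with 2.97, 10.8, 6.92 and 2.81 in BaP livers, against 11.6, 15.9, 10.4 and 14.8 in control livers, and zfpm1, a cofactor of the erythroid factor GATA1 in mammals, with 21.4, 17.7, 23 and 28.8 in BaP livers, against 89.1, 57.3, 44.9 and 41.7 in control livers. Of these 3 only zfpm1 was separated completely between the groups. The beta-globin genes have close copies, and reads may have been shared between them. The count of erythroid markers that fell was 16 without control replicate 3 and between 3 and 13 when any other liver was left out.

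Of 6 myeloid marker genes 5 fell. The summed level of the 6 ran from 56.8 to 86.7 normalized CPM in BaP livers and from 98.4 to 302 in control livers. These sums did not overlap, but in each of the 6 genes taken singly the groups did. The log2 levels averaged over the list, relative to the mean of all livers, overlapped too. There control replicate 3 (-0.58) was lower than BaP replicates 2, 3 and 4 (-0.55, -0.47 and -0.38). None of the 6 fell without control replicate 2, and all 6 did without control replicate 3. Of 3 thrombocyte markers 1 fell, itga2b, which encodes a platelet integrin chain, with 26.5, 24.6, 33.4 and 20.1 in BaP livers, against 37.7, 162, 36.9 and 38.9 in control livers, and the summed level ran from 26.7 to 46.6 in BaP livers and from 47.3 to 229 in control livers. Lymphoid markers went both ways. Of 15 genes 2 rose and 3 fell, and the summed level ran from 4211 to 7218 in BaP livers and from 3163 to 7317 in control livers. A single gene had a mean of 5563 over the 8 livers, against a median of 5.30 for the 15 genes, so the sum mostly follows that gene. The immunoglobulin chain gene IGHG1 was at 16, 49.7, 46.6 and 35.3 in BaP livers, against 11.2, 13.6, 14.7 and 11.6 in control livers, with no overlap. Pancreatic enzyme genes were abundant in all 8 livers, with a summed level over 9 genes of 28415 to 32926 in BaP livers and 11049 to 34372 in control livers, and the lowest value was that of control replicate 2. All 9 were higher in BaP livers, with a median log2 fold change of 0.52. Without control replicate 2 the median was 0.16 and none was called. Of the 9, only the elastase gene CELA1 was called, with 5449, 4589, 4861 and 4980.3 in BaP livers, against 2508, 1736, 3833 and 4615 in control livers. Hepatocyte markers identified the tissue as labelled, with a summed level over 15 genes of 143821 to 203160 in BaP livers and 104324 to 151088 in control livers, and 7 of the 15 rose. The number that rose was 1 with library size alone in place of the deposited scaling, and 4 without BaP replicate 3 or control replicate 4. No marker of any of these lists was at 0 in every liver. In a bulk sample, fewer cells of a type and less RNA per cell cannot be told apart, and the part of blood and pancreas in the results that follow was not tested except where a value is given.

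**Figure D1:**
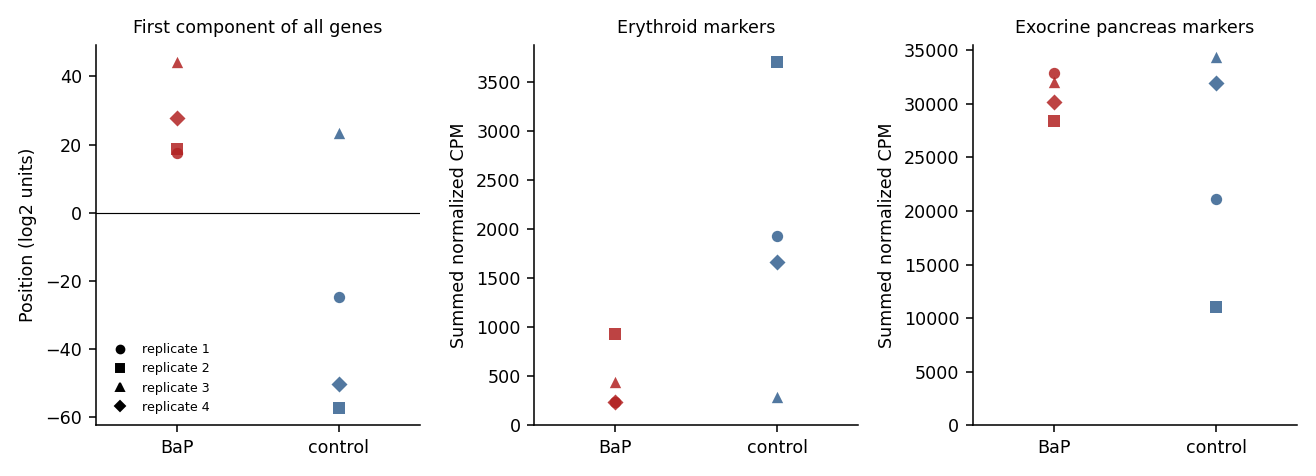
Position of each liver on the first principal component of all genes (left), and the summed normalized CPM of 17 erythroid markers (middle) and 9 exocrine pancreas markers (right). Each symbol is 1 fish. Control replicate 3, at 23.5 on the component and 286 normalized CPM of erythroid markers, lies among the BaP livers in both, and control replicate 2 has the least pancreatic RNA.

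The response as a whole was broad and small in size, and in limma it was balanced in direction. By the study's rule 1548 of 12902 genes were called, 12% of those tested, of which 765 rose (5.93%) and 783 fell (6.07%). At an adjusted p under 0.05 in limma only 9 genes remained (0.0698%), 2 that rose and 7 that fell, against 1745 genes at an unadjusted p under 0.05. The median log2 fold change over all genes was 0.017, the median size was 0.29, and 90% of genes lay between -0.86 and 0.78. Larger changes were more often decreases. Among called genes 225 rose and 351 fell by more than 2-fold, 23 rose and 39 fell by more than 4-fold, and 6 rose and 9 fell by more than 8-fold. Called genes that rose had a median log2 fold change of 0.82, and those that fell of -0.95.

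The direction of the split depended on the test and on the scaling of the libraries. By the same rule 696 genes rose and 913 fell with the recomputed exact test. The edgeR quasi-likelihood test gave 693 and 870, and DESeq2 gave 714 and 1026. In limma with library size alone, in place of the deposited scaling, 357 genes rose and 1366 fell. The median log2 fold change of all genes was then -0.16, against 0.017 with the deposited scaling. The deposited scaling factors ran from 0.858 to 1.02 in BaP livers and from 0.949 to 1.19 in control livers, and the 10 most abundant genes took 16.9% to 22.1% of the reads in BaP livers and 13.8% to 16.6% in control livers.

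**Figure D2:**
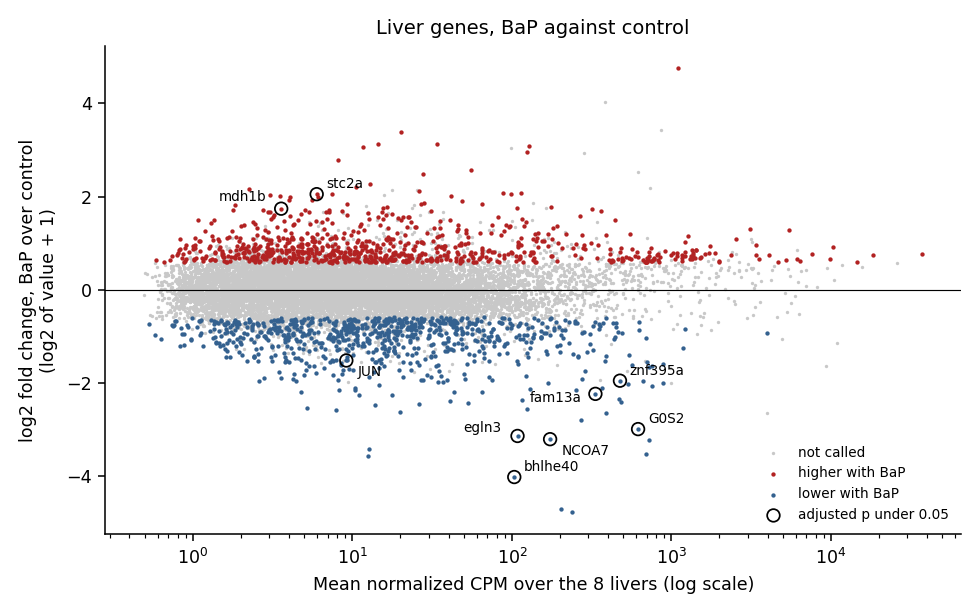
Log2 fold change (BaP over control, log2 of value plus 1) of all 12902 liver genes against their mean normalized CPM over the 8 livers, on a log scale. Red and blue points are the 765 genes that rose and the 783 that fell by the study's rule, and circles mark the 9 genes with an adjusted p under 0.05. Above 1000 normalized CPM nearly all called genes lie on the upper side.

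The 9 genes past the adjusted threshold include parts of the clock, the oxygen response and fat storage, and in each of them all 4 BaP livers lay on 1 side of all 4 control livers. The gene with the smallest p was NCOA7 (ENSONIG00000007222), a nuclear receptor coactivator, with 35.8, 34.1, 28.9 and 24.7 in BaP livers, against 177, 477, 210.1 and 399 in control livers. Its mean was 30.9 ± 5.04 normalized CPM in BaP livers and 316 ± 145 in control livers (SD, n = 4 each), a log2 fold change of -3.21 ± 0.33 SE (adjusted p = 0.0237, limma). The largest decrease among the 9 was that of bhlhe40 (ENSONIG00000020277), a transcriptional repressor of the circadian clock that is also induced by low oxygen in mammals. Its level was 8.77, 10.7, 5.84 and 11.3 in BaP livers, against 102, 370.0, 67.8 and 250.5 in control livers, with means of 9.15 ± 2.45 in BaP livers and 198 ± 139.7 in control livers (SD, n = 4 each) and a log2 fold change of -4.02 ± 0.49 SE (adjusted p = 0.0237, limma). The spread was wide among the control livers, and their lowest value was still several times the highest BaP value.

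A second gene tied to oxygen was egln3 (ENSONIG00000001807), one of the hydroxylases that mark the hypoxia-inducible factor for destruction. Its level was 18.4, 34.7, 22.9 and 10 in BaP livers, against 218, 277, 90.6 and 194 in control livers (means 21.5 ± 10.3 in BaP livers and 195 ± 77.9 in control livers, SD, n = 4 each), with a log2 fold change of -3.14 ± 0.42 SE (adjusted p = 0.0389, limma). The zinc finger gene znf395a (ENSONIG00000003350) was at 182, 224, 198 and 170.3 in BaP livers, against 613, 961, 785 and 670.0 in control livers (log2 fold change -1.95 ± 0.22 SE, adjusted p = 0.0237, limma). Both fell in every BaP liver relative to every control liver. G0S2 (ENSONIG00000021134), whose product inhibits adipose triglyceride lipase in mammals, was at 195, 159, 72.8 and 113 in BaP livers, against 653, 1832, 740.1 and 1175 in control livers (means 135 ± 53.4 in BaP livers and 1100.1 ± 539 in control livers, SD, n = 4 each, log2 fold change -2.99 ± 0.40 SE, adjusted p = 0.0389, limma). For fam13a (ENSONIG00000017440), a gene linked to fat distribution in humans, the values were 146, 101, 78.2 and 152 in BaP livers, against 515, 646, 477 and 553 in control livers (log2 fold change -2.23 ± 0.26 SE, adjusted p = 0.0237, limma). JUN (ENSONIG00000020823), a subunit of the AP-1 transcription factor, was far less abundant, with 3.52, 4.36, 4.85 and 4.19 in BaP livers, against 10.6, 16.6, 14.8 and 14.4 in control livers (log2 fold change -1.52 ± 0.21 SE, adjusted p = 0.046, limma). In all 7 genes that fell, control replicate 3 lay with the other control livers, above the BaP range.

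The 2 genes that rose were expressed at low levels. The stanniocalcin gene stc2a (ENSONIG00000017680), which encodes a secreted glycoprotein, was at 6.84, 14, 10.5 and 9.7 in BaP livers, against 2.28, 1.21, 1.47 and 1.72 in control livers (means 10.3 ± 2.94 in BaP livers and 1.67 ± 0.46 in control livers, SD, n = 4 each, log2 fold change 2.05 ± 0.25 SE, adjusted p = 0.0237, limma). The malate dehydrogenase gene mdh1b (ENSONIG00000012210) was at 5.8, 5.97, 5.57 and 6.65 in BaP livers, against 1.08, 1.12, 1.94 and 0.474 in control livers (log2 fold change 1.74 ± 0.24 SE, adjusted p = 0.0437, limma). Under library size alone neither passed the adjusted threshold, while their log2 fold changes stayed positive. The list of 9 was not firm against a change of 1 fish. Leaving out control replicate 3 gave 216 genes and leaving out BaP replicate 1 gave 16, and leaving out any other fish gave 0 or 1. The direction of the 9 changes was the same with each fish left out in turn, with log2 fold changes of -4.42 to -3.61 for bhlhe40 and 1.90 to 2.22 for stc2a.

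**Figure D3:**
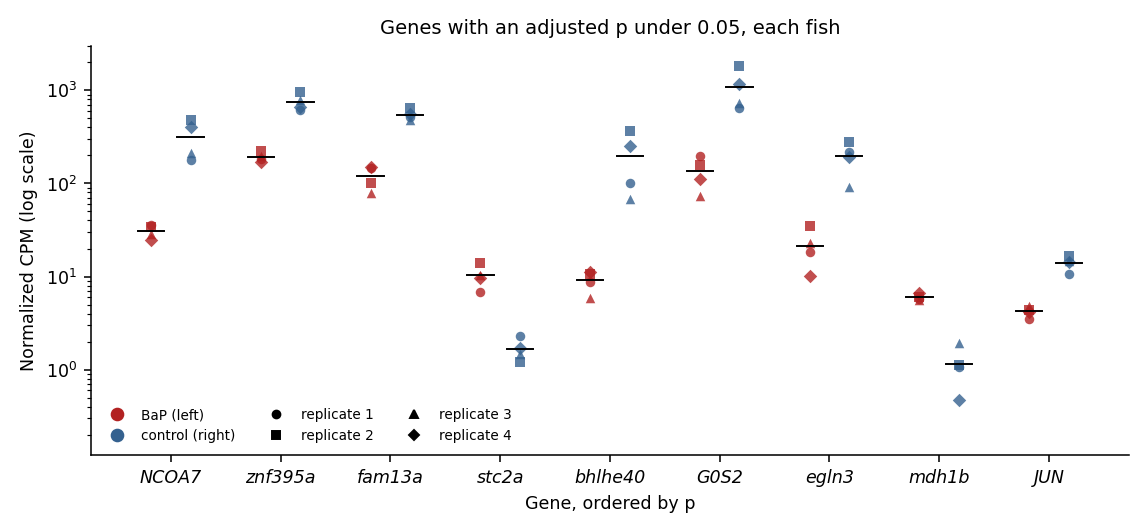
Normalized CPM (log scale) of the 9 genes with an adjusted p under 0.05 in each BaP liver (red, left) and control liver (blue, right), with the group mean as a bar. Symbols mark the replicate. In each gene the 2 groups do not overlap, and bhlhe40, with a log2 fold change of -4.02, is the most widely separated.

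The called genes with the largest fitted changes, picked out after their values were seen, did not pass the adjusted threshold. The fatty acid binding protein gene fabp7a was at 7.11, 22.4, 5.48 and 1.97 in BaP livers, against 380.5, 529.8, 9.63 and 939.6 in control livers (log2 fold change -4.77 ± 1.24 SE). The cytosolic malic enzyme gene me1, which supplies NADPH for fatty acid synthesis, was at 6.21, 6.47, 2.16 and 6.82 in BaP livers, against 510.4, 491, 3.09 and 598 in control livers (log2 fold change -4.71 ± 1.39 SE). In both, 3 control livers were far above every BaP liver and control replicate 3 was within the BaP range. The gene with the largest increase, vmo1a, was also divided among the control livers, with 1310.0, 872, 1436 and 3195 in BaP livers, against 1069, 1.39, 847 and 3.51 in control livers (log2 fold change 4.76 ± 1.86 SE). Its control livers fell into a pair of high and a pair of near-absent values, and the high pair overlapped the BaP livers.

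This pattern recurred across the response. Of the 765 genes that rose, 361 had no overlap between the groups, and in 208 more (27.2%) the overlap ended when control replicate 3 was left out, against 10.9% over all genes. Of the 783 that fell, 334 had no overlap and 262 (33.5%) had an overlap that ended without that liver. For each of the other 7 livers the matching share was between 3.07% and 14.9% of called genes, and between 1.77% and 5.57% over all genes. Over all genes tested, the BaP livers lay wholly above the control livers in 523 (4.05%) and wholly below in 474 (3.67%). Left out of the fit, control replicate 3 changed the number of called genes to 2370, of which 1169 rose and 1201 fell, and 1367 of the 1548 genes remained called. Leaving out any other liver gave between 1116 and 1612.

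Control livers varied more among themselves than BaP livers. The median SD between fish, on the log2 scale, was 0.35 in BaP livers and 0.42 in control livers, and the SD was larger in control livers for 60.3% of genes. An SD above 1 was seen in 547 genes in BaP livers and in 815 in control livers. Without control replicate 3 the share of genes with the larger SD in control livers was 52.4% and the control median was 0.37. Without BaP replicate 4, the BaP liver farthest from its group by median difference, the share was 65.9%.

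The share of genes called depended on how abundant the gene was, and so did the direction. Genes were placed in 5 classes by their mean over the 8 livers. Under 1 normalized CPM, 17 of 376 genes rose (4.52%) and 18 fell (4.79%). From 1 to under 10, 328 of 6243 rose (5.25%) and 294 fell (4.71%), and from 10 to under 100, 262 of 5197 rose (5.04%) and 352 fell (6.77%). From 100 to under 1000 the shares were higher in both directions, with 110 of 927 genes that rose (11.9%) and 116 that fell (12.5%). Of the 159 genes at 1000 and over, 48 rose (30.2%) and 3 fell (1.89%), against 5.93% and 6.07% over all genes.

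This tilt of the most abundant genes was seen in level as well as in calls. Their median log2 fold change was 0.46, against 0.017 over all genes, and 77.4% of them were higher in BaP livers. Scaling by library size alone gave 17 genes that rose and 8 that fell in this class and a median of 0.25, which is 0.41 above the median of all genes under that scaling. Without control replicate 3, 66 rose and 5 fell, and with BaP replicate 3 left out 32 rose and 3 fell. Leaving out BaP replicate 1 gave 48 and 13. Of the 48 that rose, 34 had a name, and they were mainly secreted plasma proteins (among them apoa1a, AHSG, APOH, serpinc1, c1inh and C2), ribosomal proteins and elongation factors. The 3 that fell were pck2, GRAMD3 and a gene with no name. The gene pck2, for phosphoenolpyruvate carboxykinase, which catalyses an early step of glucose synthesis, was at 3539.5, 2701, 2615 and 2079 in BaP livers, against 4586, 4844, 6282 and 4952 in control livers (log2 fold change -0.93 ± 0.23 SE). The spread between fish did not grow with abundance. The median SD in BaP and control livers was 0.41 and 0.47 under 1 normalized CPM, and 0.29 and 0.38 at 1000 and over.

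The classes held the following leading named genes. In the lowest class fam110c rose (1.24, 1.11, 1.26 and 2.32 in BaP livers, against 0, 0, 0.576 and 0.108 in control livers) and tpi1a, a paralog of the glycolytic triosephosphate isomerase, fell, with no reads in 3 BaP livers (0, 0, 0 and 0.208 in BaP livers, against 1.16, 0.961, 0.419 and 1.89 in control livers). Levels of both are low, and the lower group of each, control livers for fam110c and BaP livers for tpi1a, is near the floor of detection. The other group of each lay above it. From 10 to under 100, unc93a rose, with 19, 18.4, 30.1 and 21.4 in BaP livers, against 7.41, 7.66, 7.59 and 8.05 in control livers (log2 fold change 1.39 ± 0.22 SE), and the hormone-sensitive lipase gene lipea fell, with 9.8, 14.4, 13.4 and 11.5 in BaP livers, against 72.8, 61.1, 31.5 and 35.6 in control livers (log2 fold change -1.88 ± 0.30 SE). Among genes of 100 to under 1000, gtpbp4, needed for assembly of the large ribosomal subunit, rose with 470.5, 311, 529 and 622 in BaP livers, against 144, 111, 277 and 88.2 in control livers (log2 fold change 1.73 ± 0.37 SE). At 1000 and over, zgc:172246, a gene whose function is not annotated here, rose with 3973, 3643, 4954 and 4984 in BaP livers, against 2886, 1316, 1562 and 1603 in control livers (log2 fold change 1.31 ± 0.28 SE). None of these had an adjusted p under 0.05 (lowest 0.0714, limma).

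**Figure D4:**
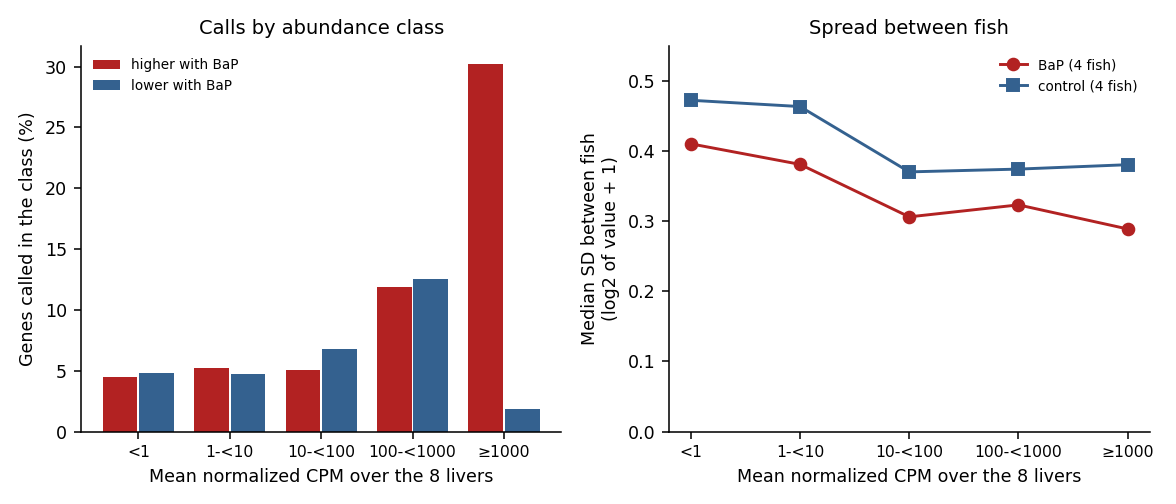
Left, percent of the genes of each abundance class that rose (red) or fell (blue) by the study's rule. Right, median SD between the 4 BaP livers (red) and between the 4 control livers (blue), in log2 of value plus 1. In the highest class 30.2% rose and 1.89% fell, and the control median lies above the BaP median in every class.

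Genes of fatty acid and triglyceride synthesis mostly fell. Of 19 named genes 13 fell, 1 rose and 5 were not called, and the median log2 fold change was -1.67, against 0.017 over all genes. The recomputed rule was met by 17 of the 19, so neither the count nor the median is independent evidence of a direction. The 2 members that missed it were 1 higher and 1 lower, with a median of -0.35. Acetyl-CoA carboxylase, the enzyme of the committed step (acaca), was at 173, 129, 22.9 and 87.1 in BaP livers, against 1484, 1499.9, 192 and 1967 in control livers (log2 fold change -3.53 ± 0.79 SE). Fatty acid synthase (fasn) was at 247, 118, 52.3 and 61.7 in BaP livers, against 1189, 1871, 160.3 and 2079 in control livers (log2 fold change -3.22 ± 0.79 SE). In acaca the groups did not overlap, with control replicate 3 the lowest control liver, and in fasn that liver lay below BaP replicate 1. ATP citrate lyase (aclya), which makes cytosolic acetyl-CoA, had 45, 33.2, 38.4 and 42.3 in BaP livers, against 127, 294, 63.5 and 392 in control livers (log2 fold change -2.12 ± 0.50 SE). The elongase elovl6 had 37.3, 23.9, 59.9 and 109 in BaP livers, against 133, 211, 139.5 and 263 in control livers (log2 fold change -1.84 ± 0.44 SE), and lpin1, which makes diacylglycerol, had 3.73, 3.33, 2.07 and 1.14 in BaP livers, against 19.4, 6.69, 9.73 and 7.25 in control livers (log2 fold change -1.67 ± 0.37 SE). Neither showed any overlap. The 1 gene that rose was acss2, for an acetyl-CoA synthetase, with 15, 9.8, 13.1 and 9.08 in BaP livers, against 6.2, 8.43, 7.43 and 5.75 in control livers (log2 fold change 0.67 ± 0.23 SE). Adjusted p-values of the called genes ran from 0.169 to 0.353 (limma). Averaged over the list, control replicate 3 was 0.73 below the mean of all livers, whereas the other 3 control livers were 1.21 to 1.59 above it and the BaP livers 0.45 to 1.43 below it.

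Sterol synthesis genes were all on the other side. Each of 7 named genes was higher in BaP livers and 3 rose, with a median log2 fold change of 1.01. The last enzyme of cholesterol synthesis, dhcr7, was at 83.3, 142, 242 and 155 in BaP livers, against 27.1, 19.2, 91.2 and 28.2 in control livers (log2 fold change 2.06 ± 0.48 SE). Squalene synthase (fdft1) was at 19.9, 36, 100.1 and 54.2 in BaP livers, against 10.8, 24.5, 17.6 and 18.4 in control livers (log2 fold change 1.33 ± 0.45 SE), and the isomerase idi1 at 29.5, 28.6, 79.4 and 37.3 in BaP livers, against 39.8, 15.6, 18.7 and 16.6 in control livers (log2 fold change 0.89 ± 0.39 SE). BaP replicate 3 was highest in all 3 genes, the number that rose was 2 to 5 with a fish left out, and no gene of this list was without overlap. The low-density lipoprotein receptor ldlrb was not called, with 229, 162, 316 and 171 in BaP livers, against 82.5, 78.4, 305 and 67.9 in control livers. The control value of 305 was that of replicate 3.

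Genes of lipid breakdown and transport mostly fell, 15 of 23, with 2 that rose and a median of -1.03. The 5 members that missed the recomputed rule went both ways, 3 higher and 2 lower, with a median of 0.051. Besides G0S2 and lipea, the acid lipase lipf was lower with no overlap, at 106, 91.3, 102 and 92.4 in BaP livers, against 200.1, 288, 155 and 184 in control livers (log2 fold change -1.04 ± 0.23 SE). The carnitine acetyltransferase CRAT rose, with 10, 7.91, 10.7 and 11.6 in BaP livers, against 3.79, 4.18, 7.33 and 4.13 in control livers (log2 fold change 0.94 ± 0.24 SE). The number that fell was 8 without control replicate 1 and 10 to 15 with any other fish left out. Apolipoprotein B, the core protein of secreted lipoproteins, was not called. Its gene ENSONIG00000006129 was at 9152, 9185, 8789 and 6213 in BaP livers, against 8605, 6086, 8330.2 and 9142 in control livers (log2 fold change 0.051).

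Of 27 genes of glucose and glycogen metabolism 16 fell and 4 rose, with a median of -0.92, and in 15 of the 27 the groups did not overlap. The recomputed rule was met by 24 of the 27. Muscle-type glycogen synthase (gys1) was at 17.7, 16, 17.6 and 10.6 in BaP livers, against 49.8, 89.1, 26.4 and 47.6 in control livers (log2 fold change -1.62 ± 0.35 SE), and ppp1r3b, the hepatic subunit that targets protein phosphatase to glycogen, at 109, 115, 32.2 and 141 in BaP livers, against 287, 389.5, 364 and 581 in control livers (log2 fold change -2.16 ± 0.44 SE). Pyruvate dehydrogenase phosphatase (pdp2) was at 6.77, 12.6, 7.64 and 6.06 in BaP livers, against 25.7, 29.2, 12.7 and 29.3 in control livers (log2 fold change -1.42 ± 0.32 SE). All 3 fell, and in each the lowest control liver lay above the highest BaP liver. Pyruvate kinase (PKLR), the last step of glycolysis, rose, with 99.7, 119, 183 and 166 in BaP livers, against 68, 36.7, 58.8 and 50.8 in control livers (log2 fold change 1.38 ± 0.28 SE), also without overlap.

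The 25 named ribosomal protein genes were higher in BaP livers and were called, with log2 fold changes from 0.67 to 0.94 and a median of 0.73, and in 24 of them the groups did not overlap. All 25 met the recomputed rule, so that the count was fixed by how the genes came to have a name, and ribosomal protein genes with no name are not counted. The gene with the smallest p was rps12, at 516, 467, 587 and 559.9 in BaP livers, against 251, 317, 312 and 283 in control livers (log2 fold change 0.87 ± 0.20 SE). The largest fold change was that of rps2, at 2538, 1746, 2695 and 2266 in BaP livers, against 1230.5, 1056, 1371 and 1118 in control livers (log2 fold change 0.94 ± 0.22 SE). The gene rpl8, the reference gene of the study's quantitative PCR, was at 1573, 1247, 1678 and 1519 in BaP livers, against 878, 938, 1037 and 786 in control livers (log2 fold change 0.72 ± 0.20 SE), with every BaP liver above every control liver. Adjusted p-values of the 25 ran from 0.171 to 0.284 (limma). With any fish left out, between 23 and 25 rose. Under library size alone 8 rose and the median was 0.53, which is 0.68 above the median of all genes under that scaling.

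Translation factors followed. Of 17 genes 16 rose and 1, the elongation factor paralog eef2b, was not called (log2 fold change -0.67). The median was 0.80, and 12 genes had no overlap. With library size alone 8 rose and the median was 0.60, and 16 of the 17 met the recomputed rule. The initiation factor 3 subunits eif3ea and eif3d were at 338, 251, 305 and 319.9 in BaP livers, against 128, 112, 206 and 97.7 in control livers (log2 fold change 1.21 ± 0.26 SE) and at 214, 148, 172 and 196 in BaP livers, against 82.4, 68.6, 135 and 64.6 in control livers (log2 fold change 1.10 ± 0.27 SE). The alpha subunit of initiation factor 2, eif2s1a, was at 71.3, 48.2, 64.6 and 59.8 in BaP livers, against 29.4, 25.8, 47.2 and 23.8 in control livers (log2 fold change 0.97 ± 0.26 SE). In each of these, control replicate 3 was the highest control liver and still below the lowest BaP liver. Of 12 genes for folding and translocation in the endoplasmic reticulum 8 rose and 2 fell, with a median of 0.86. The disulfide isomerase txndc5 was at 72.6, 55.5, 64.3 and 63.3 in BaP livers, against 32.4, 28.1, 42.9 and 24.1 in control livers (log2 fold change 1.01 ± 0.23 SE). The stress sensor ern1 and the stress transcription factor gene ddit3 were the 2 that fell, ern1 with 128, 70.6, 68.5 and 45.9 in BaP livers, against 199, 126, 169.9 and 129.9 in control livers (log2 fold change -1.06 ± 0.32 SE). The count that rose was 4 with library size alone, 3 to 5 without BaP replicate 1 or 3 or control replicate 1, 2 or 4, and 9 without BaP replicate 2.

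Of 40 plasma protein, complement and coagulation genes 23 rose and 2 fell, with a median of 0.70. With library size alone 14 rose and 2 fell, and the median was 0.49. Complement C2 was at 1477, 1663, 1909 and 1473 in BaP livers, against 678, 689.6, 1119.7 and 754 in control livers (log2 fold change 1.03 ± 0.23 SE), complement factor D (cfd) at 160.5, 185, 119 and 159 in BaP livers, against 52, 92.8, 62.9 and 83 in control livers (log2 fold change 1.11 ± 0.25 SE) and carboxypeptidase N (cpn1) at 201, 176, 198 and 198 in BaP livers, against 109, 94.6, 51 and 91.4 in control livers (log2 fold change 1.20 ± 0.26 SE). The pentraxin APCS (ENSONIG00000018840) was the rarest of the leading members, at 1.31, 1.19, 2.97 and 4.12 in BaP livers, against 0, 0.31, 0.105 and 0.344 in control livers (log2 fold change 1.43 ± 0.30 SE). Apolipoprotein A-I (apoa1a), the gene with the highest mean over the 8 livers, was at 38079, 30394, 61139.8 and 60229.9 in BaP livers, against 25192, 26344, 35002 and 22117 in control livers (log2 fold change 0.76 ± 0.28 SE). Antithrombin (serpinc1), with 1246, 1139.8, 1597 and 1416 in BaP livers, against 932, 611, 990.0 and 748 in control livers (log2 fold change 0.73 ± 0.23 SE), and the fetuin AHSG, with 9595, 12154, 13051 and 13630.0 in BaP livers, against 8462, 6703, 8004 and 7187 in control livers (log2 fold change 0.67 ± 0.21 SE), showed no overlap. For 17 of the 40 genes the recomputed rule was not met. Of these, 14 were higher and 3 lower, with a median of 0.49. Examples were the fibrinogen chain fga, with 30839, 24926, 37551 and 28936 in BaP livers, against 19241, 18202, 31382 and 15792 in control livers (log2 fold change 0.57 ± 0.26 SE), and hemopexin (hpx), with 10777, 9938, 10881 and 12891 in BaP livers, against 11603, 6765, 10052 and 10779.7 in control livers (log2 fold change 0.21 ± 0.23 SE), neither of which was called.

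Most clock genes fell. Of 16 genes 14 fell and 2, CLOCK and per2, rose. All 16 met the recomputed rule, so this count is not independent evidence of a direction. The median was -1.20. The number that rose was 0 without control replicate 2 and 1 without BaP replicate 1 or 3. With single fish left out, 10 to 13 fell. The output gene tefb was at 17.5, 22.4, 16.9 and 7.1 in BaP livers, against 64.4, 86.3, 42.5 and 54.3 in control livers (log2 fold change -1.94 ± 0.35 SE), usp2a, a deubiquitinase under clock control, at 6.35, 6.61, 6.02 and 10.5 in BaP livers, against 27, 23.2, 13.8 and 26.8 in control livers (log2 fold change -1.49 ± 0.28 SE), and nocta, a rhythmic nocturnin paralog, at 34.7, 27.2, 15.2 and 21.8 in BaP livers, against 64.2, 70.7, 54.1 and 51.6 in control livers (log2 fold change -1.30 ± 0.27 SE). The groups did not overlap in these 3. The 2 genes that rose stood at 2.28, 1.3, 1.35 and 1.14 in BaP livers, against 0.431, 0.186, 1.2 and 0.495 in control livers for CLOCK (log2 fold change 0.69 ± 0.25 SE) and 12.2, 17.7, 31.6 and 28.1 in BaP livers, against 12.5, 5.24, 7.27 and 15.5 in control livers for per2 (log2 fold change 1.09 ± 0.38 SE), and both overlapped. The sources used here do not give the hour at which each fish was sampled.

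Genes of the hypoxia response mostly fell. Of 12 genes 11 fell and 1, stc2a, rose, and that count was the same whichever fish was left out. All 12 met the recomputed rule, so neither the count nor its stability is independent evidence of a direction. The median was -1.53, and 4 of the 12 were among the 9 genes past the adjusted threshold. In 8 of the 12 the groups did not overlap. Erythropoietin (epo), which drives red cell formation, fell with overlap through control replicate 3, at 3.38, 8.69, 9.35 and 3.84 in BaP livers, against 15.7, 32.8, 8.22 and 24.8 in control livers (log2 fold change -1.49 ± 0.44 SE). The glucose transporter glut1 was at 5.25, 6.5, 5.39 and 2.56 in BaP livers, against 12.6, 26.4, 7.64 and 14.9 in control livers (log2 fold change -1.39 ± 0.37 SE). This list shares bhlhe40 and bhlhe41 with the clock genes, glut1 and pfkfb4b with the glucose genes, and ddit4 and bnip4 with the apoptosis genes. Other lists also share members, among them hells in the DNA repair and DNA methylation lists and apoa1a in the plasma protein and hepatocyte lists.

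Immediate early and stress transcription factor genes were all lower, and 11 of 16 fell, with a median of -1.12. The number that fell was 7 without BaP replicate 4 or control replicate 2. The kruppel-like factor klf11b was at 62.5, 83.2, 77.1 and 91.1 in BaP livers, against 139.5, 159, 312 and 123 in control livers (log2 fold change -1.13 ± 0.30 SE), and klf6a at 17.3, 16.5, 21.7 and 15.5 in BaP livers, against 49.7, 55.4, 18.5 and 55.6 in control livers (log2 fold change -1.18 ± 0.35 SE). In klf6a control replicate 3 lay within the BaP range and in klf11b it was the highest of the 8 livers. Among genes of apoptosis and growth arrest 10 of 19 fell and 5 rose, with a median of -0.92, and 3 rose with library size alone or without BaP replicate 4. A copy of the survival gene MCL1 (ENSONIG00000006658) was at 157, 156, 129 and 106 in BaP livers, against 331, 479.9, 250.2 and 472 in control livers (log2 fold change -1.45 ± 0.27 SE), with no overlap. The stress gene ddit4, an inhibitor of mTOR signalling, had the largest change of the list and was at 243, 132, 85.6 and 30.3 in BaP livers, against 290.0, 930.1, 667 and 739.7 in control livers (log2 fold change -2.64 ± 0.59 SE). Caspase 8 (casp8) was at 51.7, 48.9, 38.6 and 19.8 in BaP livers, against 81.1, 103, 76.8 and 105 in control livers (log2 fold change -1.26 ± 0.31 SE). The 5 that rose were GADD45B, ccng1, tradd, perp and tigara. GADD45B, a damage-inducible gene, was at 772, 348, 569.7 and 1466 in BaP livers, against 182, 286, 355 and 439 in control livers (log2 fold change 1.19 ± 0.43 SE), with overlap, and ccng1, a p53 target, at 514, 426, 619 and 574 in BaP livers, against 191, 151, 385 and 259.9 in control livers (log2 fold change 1.18 ± 0.30 SE), with none.

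Mitotic genes were low in all livers and were lower in BaP livers in 33 of 33 cases. In limma 13 fell, whereas 29 fell by the rule with the recomputed exact test. The groups did not overlap in 2 genes. The spindle gene tacc3 was 1 of these, at 3.73, 4.27, 2.79 and 3.5 in BaP livers, against 6.81, 22.1, 4.81 and 26.1 in control livers (log2 fold change -1.52 ± 0.47 SE). Most others overlapped, for instance INCENP, part of the chromosomal passenger complex, at 0.069, 0.666, 1.71 and 0.381 in BaP livers, against 2.24, 4.22, 0.942 and 9.13 in control livers (log2 fold change -1.41 ± 0.48 SE). Averaged over the list, control replicate 3 stood 0.75 below the mean of all livers, the BaP livers 0.36 to 0.80 below, and the other control livers 0.18, 0.96 and 1.92 above. Without that liver 32 of 33 fell, and 6 to 8 fell without BaP replicate 1 or control replicate 2 or 4. The summed erythroid level, given above, splits the livers in the same way, and its part in the mitotic result was not tested.

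Interferon response genes were also lower. Their averages over the list did not overlap between the groups, but only by a narrow margin. Relative to the mean of all livers, the highest BaP liver, replicate 2, stood at -0.385 and the lowest control liver, replicate 3, at -0.372. All 29 genes were lower, with a median of -1.09, and in 6 of the 29 the groups did not overlap. In limma 16 fell, whereas 27 fell by the rule with the recomputed exact test. The nucleotide kinase cmpk2 was at 2.76, 4.72, 5.39 and 3.36 in BaP livers, against 18.7, 11.2, 8.01 and 47.5 in control livers (log2 fold change -1.86 ± 0.47 SE), and usp18, which removes the ubiquitin-like ISG15 and restrains the response, at 7.87, 14.2, 6.92 and 14.4 in BaP livers, against 55.8, 16.8, 23.8 and 156 in control livers (log2 fold change -1.98 ± 0.60 SE). Control replicate 4 was the highest liver in both, and averaged over the list it stood 1.93 above the mean of all livers, against 0.93 for control replicate 1 and -0.050 and -0.37 for control replicates 2 and 3. The number that fell was 26 without control replicate 3, and 7 to 10 without BaP replicate 3 or control replicate 1 or 4. The erythroid sum of control replicate 3 lay in the BaP range and its myeloid sum was the lowest of the control livers. Control replicate 2, at -0.050 over the interferon list, had the highest erythroid and myeloid sums of the 8 livers, 3709 and 302. In control replicate 4, the highest over that list, these sums were 1660 and 278. The part of these cells in the result was not tested.

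Genes of DNA replication and repair fell in 10 of 22 cases and rose in 3, with a median of -0.76. The 5 members that missed the recomputed rule were 3 higher and 2 lower, with a median of 0.36. The 3 that rose were hells, neil1 and lig1. The chromatin remodeller hells, which is needed for DNA methylation in mammals, was at 8.7, 6.8, 13.9 and 16.2 in BaP livers, against 2.97, 3.22, 3.87 and 1.27 in control livers (log2 fold change 1.68 ± 0.33 SE), and neil1, a glycosylase of base excision repair, at 9.05, 18.2, 25.7 and 51.2 in BaP livers, against 7.58, 8.31, 5.65 and 4.74 in control livers (log2 fold change 1.62 ± 0.44 SE). The DNA ligase lig1 was at 5.04, 2.55, 3.41 and 4.16 in BaP livers, against 1.77, 1.74, 1.78 and 2.13 in control livers (log2 fold change 0.72 ± 0.22 SE), and none of the 3 overlapped. The helicase subunit mcm7 fell, with 25.8, 61, 16.1 and 20.1 in BaP livers, against 151, 109, 43.5 and 174 in control livers (log2 fold change -1.94 ± 0.50 SE), with control replicate 3 below BaP replicate 2. Of 16 genes of DNA methylation and chromatin 11 fell and 2 rose, with a median of -0.82. The dioxygenase tet3, which oxidises methylcytosine, fell with 39.9, 22, 32.1 and 6.17 in BaP livers, against 61.5, 58.1, 40.2 and 53.2 in control livers (log2 fold change -1.30 ± 0.48 SE), and suv420h2, a histone methyltransferase, with 2.42, 3.83, 3.24 and 1.07 in BaP livers, against 6.55, 6.66, 4.76 and 7 in control livers (log2 fold change -1.05 ± 0.29 SE).

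Xenobiotic metabolism, which includes the targets of the aryl hydrocarbon receptor, had no common direction. Of 20 genes 6 rose and 7 fell, with a median of -0.062, against 0.017 over all genes. The receptor target cyp1b1 was at 0.069, 4.36, 5.66 and 13.4 in BaP livers, against 0, 0.031, 0.523 and 0.237 in control livers (log2 fold change 2.04 ± 0.64 SE, adjusted p = 0.243, limma). These were 1, 157, 63 and 388 reads in BaP livers, against 0, 1, 10 and 11 reads in control livers, so BaP replicate 1 lay in the control range and the other 3 BaP livers lay above it. The hallmark target cyp1a was not called, with 344, 253, 294 and 363 in BaP livers, against 349, 169, 48.3 and 249 in control livers (log2 fold change 0.92 ± 0.52 SE, adjusted p = 0.457, limma). Of the BaP livers only replicate 4 lay above the highest control liver, and control replicate 3, at 48.3, was the lowest of the 8.

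The reductase gene akr1a1a rose without overlap, at 8.49, 16.7, 21.5 and 10.5 in BaP livers, against 0.689, 0, 7.12 and 0.43 in control livers (log2 fold change 2.78 ± 0.59 SE). A CYP2J2 gene (ENSONIG00000002615), for a monooxygenase with close copies, was at 11.3, 11.7, 13.6 and 26.5 in BaP livers, against 7.41, 4, 8.9 and 3.85 in control livers (log2 fold change 1.24 ± 0.34 SE). The number of genes of the list that fell was 8 without control replicate 3 and 2 to 4 with any other fish left out, and 3 rose with library size alone or without BaP replicate 2. AKR1D1, a steroid reductase of bile acid synthesis, fell, with 4, 11.4, 10.2 and 10.7 in BaP livers, against 14.2, 41.9, 17.2 and 24.2 in control livers (log2 fold change -1.30 ± 0.39 SE). Of the 7 list members that missed the recomputed rule, 5 were higher and 2 lower. The transporter slc47a1 rose in limma, with 63.9, 99.6, 99.8 and 68.9 in BaP livers, against 89.3, 17.7, 44.8 and 19.5 in control livers (log2 fold change 1.22 ± 0.47 SE). For the monooxygenase genes CYP2W1 and CYP2C18 the values were 721, 706, 456 and 341 in BaP livers, against 519.9, 603, 322 and 500.4 in control livers and 0, 39.6, 65.7 and 31.9 in BaP livers, against 2.37, 9.76, 13.7 and 4.99 in control livers, and neither was called. For CYP2W1 the log2 fold change was 0.16 with the deposited scaling and -0.043 with library size alone. CYP2C18 had no reads in BaP replicate 1, the liver that also had 1 read of cyp1b1.

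The list of the growth hormone and insulin-like growth factor axis also holds thyroid hormone and activin genes. Of its 14 genes 7 rose and 5 fell, with a median of 0.87. INHBE, an activin subunit gene expressed in liver, fell furthest, with 249.5, 331, 222 and 725 in BaP livers, against 1027, 1691, 1132 and 1706 in control livers (log2 fold change -1.99 ± 0.38 SE). The kinase jak2a, which carries the growth hormone signal, was at 106, 90.2, 66.6 and 87.9 in BaP livers, against 242, 399.8, 109 and 208 in control livers (log2 fold change -1.31 ± 0.36 SE), and the thyroid hormone receptor thrb at 25.3, 26.4, 21.3 and 18.3 in BaP livers, against 39.7, 63.4, 30.6 and 52.5 in control livers (log2 fold change -0.96 ± 0.27 SE). All 3 fell without overlap. DIO2, the deiodinase that activates thyroid hormone, rose with 29.6, 15.6, 27.9 and 48.5 in BaP livers, against 7.84, 4.09, 24 and 7.45 in control livers (log2 fold change 1.56 ± 0.48 SE), with control replicate 3 above BaP replicate 2. The growth factor gene igf2 was not called in limma, whereas the paper lists it as increased in liver by RNA sequencing. The paper's qPCR also covered igf2 and did not name it among the genes with significant changes. Here igf2 was at 58.6, 8.13, 27.2 and 11 in BaP livers, against 8.1, 13, 4.55 and 16.3 in control livers (log2 fold change 0.98 ± 0.58 SE). Its BaP livers reached from within the control range to well above it. The number that rose was 3 to 5 when BaP replicate 1, 3 or 4 or control replicate 1, 3 or 4 was left out, 7 or 8 without the other fish, and 3 with library size alone.

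**Figure D5:**
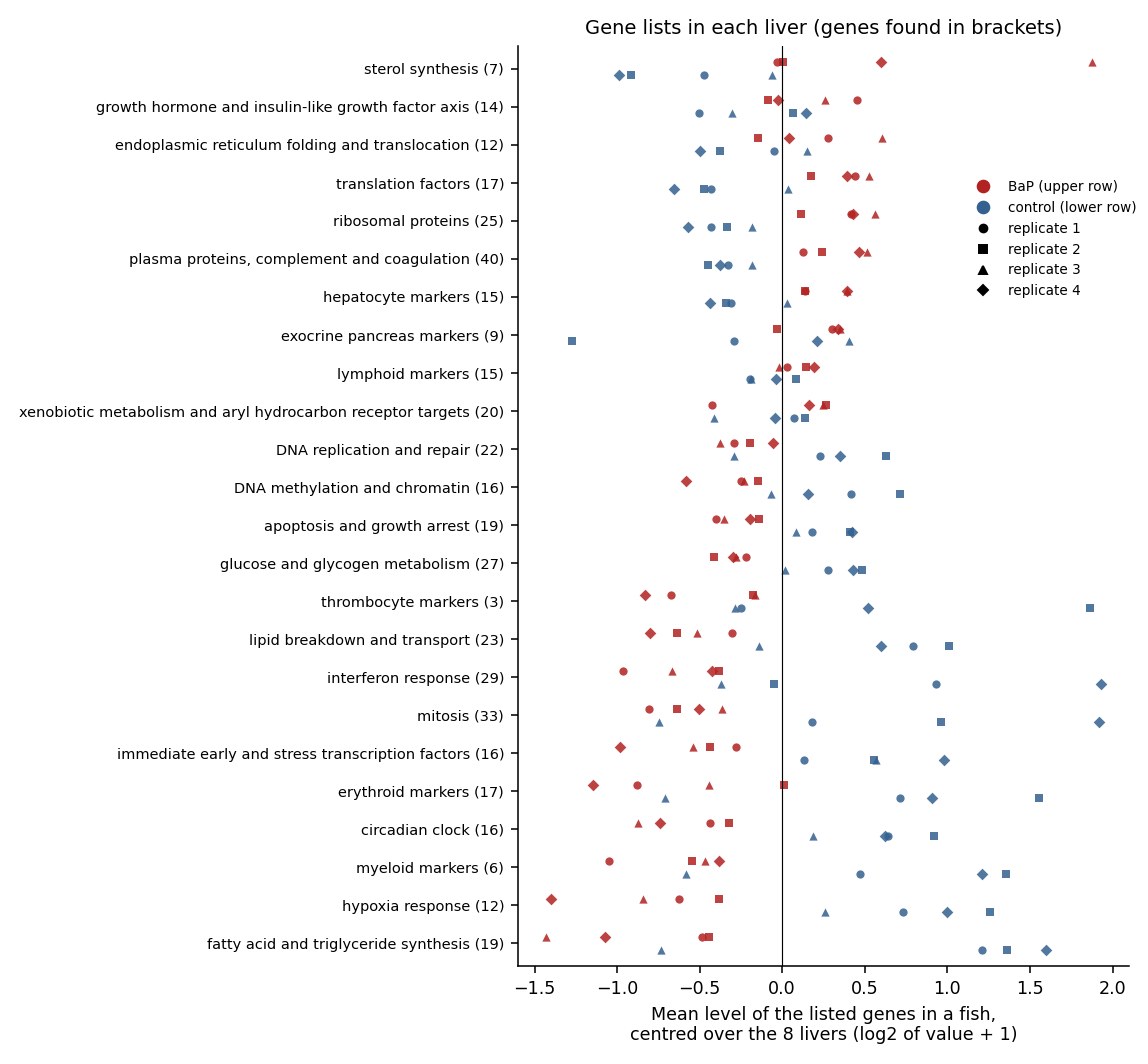
Mean level of the genes of each list in each liver, centred over the 8 livers (log2 of value plus 1), ordered by the median log2 fold change. Red symbols in the upper row are BaP livers and blue symbols in the lower row control livers, with the number of genes found in brackets. In the hypoxia, clock, ribosomal protein and plasma protein lists the groups do not overlap, whereas in the fatty acid, mitosis, erythroid and myeloid lists control replicate 3 lies among the BaP livers.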

How the data were processed

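Liver RNA of 4 BaP fish and 4 control fish was sequenced and each library was assigned to its group from its labels. According to the submitters' notes the authors aligned trimmed reads with TopHat and compared groups with the edgeR exact test. Tool versions, genome build and annotation are not given in the sources used here. The deposited values are a signal that the authors had normalized, CPM computed with the library size multiplied by a TMM factor, and all of them gave back whole reads (100% of values within 0.01 of a whole number).

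Differences were tested with limma 3.58.1 in R 4.3.3 on log2 of the value plus 1 (two-sided, default empirical Bayes, no covariate, no filter), with Benjamini-Hochberg adjustment over 12902 genes. The exact test and quasi-likelihood test of edgeR 4.0.16 and DESeq2 1.42.0 on the recovered reads, library size alone, a pseudocount of 0.1, a filter at a mean of 1 normalized CPM, a trended robust prior, a replicate block and each fish left out were alternatives. Leaving out fish for the abundance classes was added after the data were seen. The limma, edgeR and DESeq2 tests were tried on simulated reads. Nothing states whether the 8 livers were processed together, and p-values measure only the spread between these fish. Precision is limited by 4 fish a group and by the depth given above.

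Members and lists were chosen with earlier results of these data known. Names come from the study's supplementary list of genes it had picked, whose fold changes and p-values were not used. Named genes were those with an adjusted p under 0.05, up to 4 members with the smallest p in each list, the genes with qPCR primers, cyp1a and xenobiotic genes that missed the study's rule in liver when its exact test was recomputed, and the leading named gene of each abundance class in each direction. The genes fabp7a, me1, vmo1a, apoa1a, serpinc1, AHSG, APOB, fga, hpx, CLOCK, per2, epo, glut1, ern1, ccng1, eef2b, acss2, CRAT and others outside that rule were named after their values were seen. Genes with close copies are uncertain, since how reads were split between copies is not stated.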

Additional observations from a re-analysis of the deposited data

Results flagged for a closer look

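In 18 of 276 groups of 4 livers 1 fish stood far from the others of its group, where chance gives about 1 in 20. Control replicate 3 accounted for several. It was lowest of its group in acaca (192 normalized CPM), pdp2 (12.7), klf6a (18.5) and ITGAM (0.680), highest in CRAT (7.33) and ldlrb (305), and lowest in the mean centred log2 level of the fatty acid and triglyceride synthesis list (-0.73). BaP replicate 4 was highest in usp2a (10.5), fam110c (2.32), tpi1a (0.208) and dpy30 (10.2). BaP replicate 1 was lowest in AKR1D1 (4.00), CYP2C18 (0) and the mean centred log2 level of the xenobiotic list (-0.42). BaP replicate 2 was lowest in cpn1 (176) and in the mean centred log2 level of the exocrine pancreas markers (-0.033). Control replicate 2 was highest in itga2b (162), and control replicate 4 in lig1 (2.13).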

How the results depend on the processing

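The number of genes with an adjusted p under 0.05, 9 in limma, was 224 with the edgeR exact test, 5 with its quasi-likelihood test, 443 with DESeq2, 14 with a trended robust prior, 8 with library size alone and 9 with the filter. With a pseudocount of 0.1 it was 0 in limma, where 1527 genes met the study's rule. With single fish left out it ran from 0 to 216, the highest without control replicate 3. The number called by the study's rule ran from 1116 to 2370 with single fish left out, the highest again without control replicate 3, and from 1505 to 1740 under the other alternatives. The deviations of same-numbered BaP and control livers had r of -0.024, 0.047, 0.20 and 0.037 over genes. Other pairs ran from -0.17 to 0.16. These values cannot settle whether the numbers pair the fish. A replicate block gave 2 genes at an adjusted p under 0.05 and 1690 by the study's rule. In the abundance classes, grouping by the median gave 77 called genes under 1 normalized CPM, and leaving out single fish gave 24 to 54 there, 460 to 999 from 1 to under 10 and 433 to 941 from 10 to under 100. The median log2 fold change of the apoptosis and growth arrest list ran from -1.16 to -0.70 with single fish left out. That of the xenobiotic list ran from -0.15 to 0.12, with 0.013 without control replicate 2 and 0.12 without control replicate 4. The log2 fold change of the GSTA1 copy ENSONIG00000009676 ran from -0.65 to 0.059 with single fish left out, the highest without control replicate 4. That of CYP2W1 ran from -0.024, without control replicate 3, to 0.37, and was -0.043 with library size alone. The cause of these changes was not tested. Of the remaining values of named genes, 1586 kept direction and side of the threshold, 154 newly passed it and 79 no longer did.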
